A study of Mus musculus with 6 samples.

Results

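Oligodendrocytes wrap the axons of the brain in myelin, and their mature form is recognised by a set of highly expressed myelin protein genes. Of the 45470 gene names used from the deposited count table, 9 are described here. They are the myelin genes Mbp, Mobp, Cnp, Mag, Mog, Cldn11 and Ermn, the regulator Myrf, and Enpp2, which encodes a secreted enzyme. They were taken by symbol as myelin and oligodendrocyte genes, and all 9 were expressed highly enough to be tested. RNA was sequenced from prefrontal cortex homogenate of mice in postnatal week 8. A group of 3 libraries came from mice heterozygous for a duplication of the segment that matches human 16p11.2, and 3 came from wildtype mice. Per the design text, the line began as a C57BL/6N and 129Sv hybrid and was then bred to C57BL/6 for 10 generations. The labels give no sex or litter and do not state that a library is 1 mouse, and p-values therefore reflect the spread among libraries, which may be technical. The tissue is a homogenate of all cells. A lower share of oligodendrocytes in the piece dissected and less RNA per oligodendrocyte cannot be told apart in a homogenate.

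In the life of the lineage, precursors divide, stop, and switch on the myelin programme under transcription factors such as SOX10 and MYRF. The myelin proteins are then made in large amounts, compact the membrane layers or hold them to the axon, and stay expressed in adult cortex. In mouse cortex myelin is still being added in young adulthood, and deep layers next to the white matter hold more of it than superficial layers.

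Total gene counts were 14891890 to 21872271 in duplication libraries and 12988457 to 14369271 in wildtype libraries. Gene names in the count table stood up to 6 lines away from their counts, and values are given after the names were moved back. Of 23 tested genes of the duplicated interval, 19 were higher in every duplication library than in every wildtype library, as were 11.7% of all genes. The median log2 fold change of the 23 was 0.75. Per library they stood at 0.59, 1.02 and 0.61 in duplication replicates 1 to 3, in log2 units. Wildtype replicates 1 to 3 were at 0.01, 0.05 and 0. Duplication replicate 2 was the highest, and whether copy number differs among the duplication libraries was not tested. The libraries differ in 2 further ways that touch the results. Transcripts of the annotation classes TEC (unspliced clones) and sense intronic averaged -0.44, -0.43 and -0.13 in duplication replicates 1 to 3 and 0.47, 0.00 and 0.53 in wildtype replicates 1 to 3, in log2 CPM around the mean of the 6 libraries. CPM are counts scaled to library size with TMM factors. On the same scale, 12 markers of meningeal fibroblasts and arachnoid averaged 1.01, 0.34 and -0.01 in duplication and -0.45, -0.66 and -0.24 in wildtype libraries.

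The start regions of some of the myelin genes are shown because MYRF, one of the 9 gene products, is a transcription factor of the myelin programme. Reference promoters (RefSeq, GRCm38.p6, 250 bases before to 50 after a start) were found for Cldn11, Cnp, Ermn, Mag, Mobp and Mog. The words CTGGCAC and CTGGTAC, forms of the sequence that MYRF binds, were searched on both strands, and so were ACAAAG and ACAATG, cores bound by SOX proteins such as SOX10. None of these 4 words overlapped another in the regions printed. A MYRF word was present in 4 of 8 promoters of these 6 genes, those of Cnp and Mog and 2 of Mag, and in 7.1% of 32817 promoters of all genes. The 2 Mag promoters overlap and share the same word, so by gene the count is 3 of 6. A SOX word was present in 5 of the 8, for Cnp, Ermn, Mag and Mobp, and in 28.6% of all promoters. By gene this was 4 of 6, as the same 2 Mag promoters also share the SOX word. Capitals mark the words in the 4 promoters below, each read 5′ to 3′ on the strand of its gene, from chr11:100574689-100574988 (plus), chr7:30914814-30915113 (minus), chr17:37023349-37023648 (minus) and chr9:120149492-120149791 (plus) in that order.
Cnp: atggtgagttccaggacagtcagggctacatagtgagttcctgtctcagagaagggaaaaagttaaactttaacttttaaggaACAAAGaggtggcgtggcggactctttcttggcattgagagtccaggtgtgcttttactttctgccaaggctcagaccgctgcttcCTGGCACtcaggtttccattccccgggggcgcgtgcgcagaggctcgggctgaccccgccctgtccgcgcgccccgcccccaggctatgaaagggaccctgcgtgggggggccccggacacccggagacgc
Mag: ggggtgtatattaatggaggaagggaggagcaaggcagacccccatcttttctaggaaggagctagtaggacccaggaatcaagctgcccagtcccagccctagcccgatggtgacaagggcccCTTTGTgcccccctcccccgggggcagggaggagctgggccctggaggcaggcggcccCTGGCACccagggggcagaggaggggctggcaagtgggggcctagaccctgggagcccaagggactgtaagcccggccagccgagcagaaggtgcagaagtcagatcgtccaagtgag
Mog: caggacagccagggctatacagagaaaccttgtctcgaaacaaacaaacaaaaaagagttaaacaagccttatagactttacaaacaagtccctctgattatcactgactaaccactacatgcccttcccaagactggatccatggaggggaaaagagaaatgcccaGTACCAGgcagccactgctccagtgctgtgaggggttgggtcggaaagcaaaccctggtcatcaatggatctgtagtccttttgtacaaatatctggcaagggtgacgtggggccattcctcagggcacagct
Mobp: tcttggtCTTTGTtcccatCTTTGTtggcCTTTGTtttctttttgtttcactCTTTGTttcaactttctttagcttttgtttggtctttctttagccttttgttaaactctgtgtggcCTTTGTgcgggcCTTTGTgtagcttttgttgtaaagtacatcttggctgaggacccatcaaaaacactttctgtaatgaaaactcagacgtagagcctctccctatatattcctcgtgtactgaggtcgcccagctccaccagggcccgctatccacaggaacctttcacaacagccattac
The base of the MYRF word farthest from the start lay 81 bases before it in Cnp, 68 in Mag and 83 in Mog. In Mog the word CTGGTAC is on the opposite strand. In Mobp, 6 copies of the SOX word ACAAAG on the opposite strand lay 120 to 243 bases before the start. A match of these letters is a description and not a site of binding, and of the other 2 starts listed for Mag, 1 shares these matches and 1 has none.

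Myelin protein genes were on average lower in duplication than in wildtype cortex, by less than the range of the wildtype libraries. Of the 9 genes, 8 had a negative log2 fold change and 1, Enpp2, a positive one, with a median of -0.36 beside a median of 0.005 over all 15398 genes tested. None of the 9 passed (edgeR quasi-likelihood test, Benjamini-Hochberg adjusted p under 0.05), and 0% of all genes did. At an unadjusted p under 0.05, 1 was higher, Enpp2, and 1 lower, Myrf, against 7.05% and 12.2% of all genes. DESeq2 called 46 genes higher (0.299%) and 239 lower (1.55%) over the whole table and none of the 9, and limma-voom called 0 genes in all.

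Mbp (chromosome 18, 82475146 to 82585637 in mm10) encodes the basic protein that binds the cytoplasmic faces of the myelin membrane together. Its level was 541, 423 and 503 CPM in duplication replicates 1 to 3 and 448, 564 and 792 CPM in wildtype replicates 1 to 3. Wildtype replicate 3 was the highest of the 6 libraries and duplication replicate 2 the lowest, and the groups overlapped. The log2 fold change was -0.30 ± 0.18 (SE), with a 95% interval of -0.71 to 0.11 (edgeR adjusted p = 0.388). Mobp (chromosome 9, 120149707 to 120181484), another small basic protein of central myelin, had 243, 169 and 208 CPM in duplication and 203, 247 and 382 CPM in wildtype libraries. The libraries stood in the same order at both ends, with a log2 fold change of -0.43 ± 0.21 (edgeR adjusted p = 0.309).

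Cnp, Mag and Mog mark parts of the sheath outside compact myelin. Cnp (chromosome 11, 100574904 to 100591729), a cyclic nucleotide phosphodiesterase that keeps cytoplasmic channels in the sheath open, had 136, 102 and 107 CPM in duplication and 114, 132 and 164 CPM in wildtype libraries. Mag (chromosome 7, 30899176 to 30914873), an adhesion protein of the membrane next to the axon, had 49.5, 30.4 and 38.5 CPM in duplication and 45.3, 47.4 and 64.7 CPM in wildtype libraries. Mog (chromosome 17, 37010743 to 37023398), on the outer surface of the sheath, had 18.5, 11.8 and 14.1 CPM in duplication and 14.4, 18.1 and 24.8 CPM in wildtype libraries. All 3 genes again had their highest value in wildtype replicate 3, their lowest in duplication replicate 2, and overlapping groups. Duplication replicate 1 lay above wildtype replicates 1 and 2 for Cnp, Mag and Mog. Log2 fold changes were -0.25 ± 0.14 for Cnp, -0.40 ± 0.18 for Mag and -0.36 ± 0.21 for Mog (edgeR adjusted p = 0.362, 0.267 and 0.372). Mag lies on the chromosome that carries the duplicated interval, but far outside it.

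Cldn11 (chromosome 3, 31149920 to 31164324) forms the tight junctions between myelin layers, and cells of the arachnoid also make it. It had 50.6, 36.4 and 40.6 CPM in duplication and 37.8, 48.3 and 64.25 CPM in wildtype libraries. Wildtype replicate 3 was again highest and duplication replicate 2 lowest, with a log2 fold change of -0.23 ± 0.18 (edgeR adjusted p = 0.502). The libraries with the highest meningeal markers, duplication replicates 1 and 2, held the second and the last place for Cldn11. The part of meningeal tissue in the Cldn11 value was not tested. Ermn (chromosome 2, 58045113 to 58052864), an actin-binding protein of late myelinating oligodendrocytes, had 29.65, 21.8 and 27.6 CPM in duplication and 23.2, 34.4 and 46.45 CPM in wildtype libraries. Groups overlapped here too, with a log2 fold change of -0.39 ± 0.22 (edgeR adjusted p = 0.347).

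**Figure D1:**
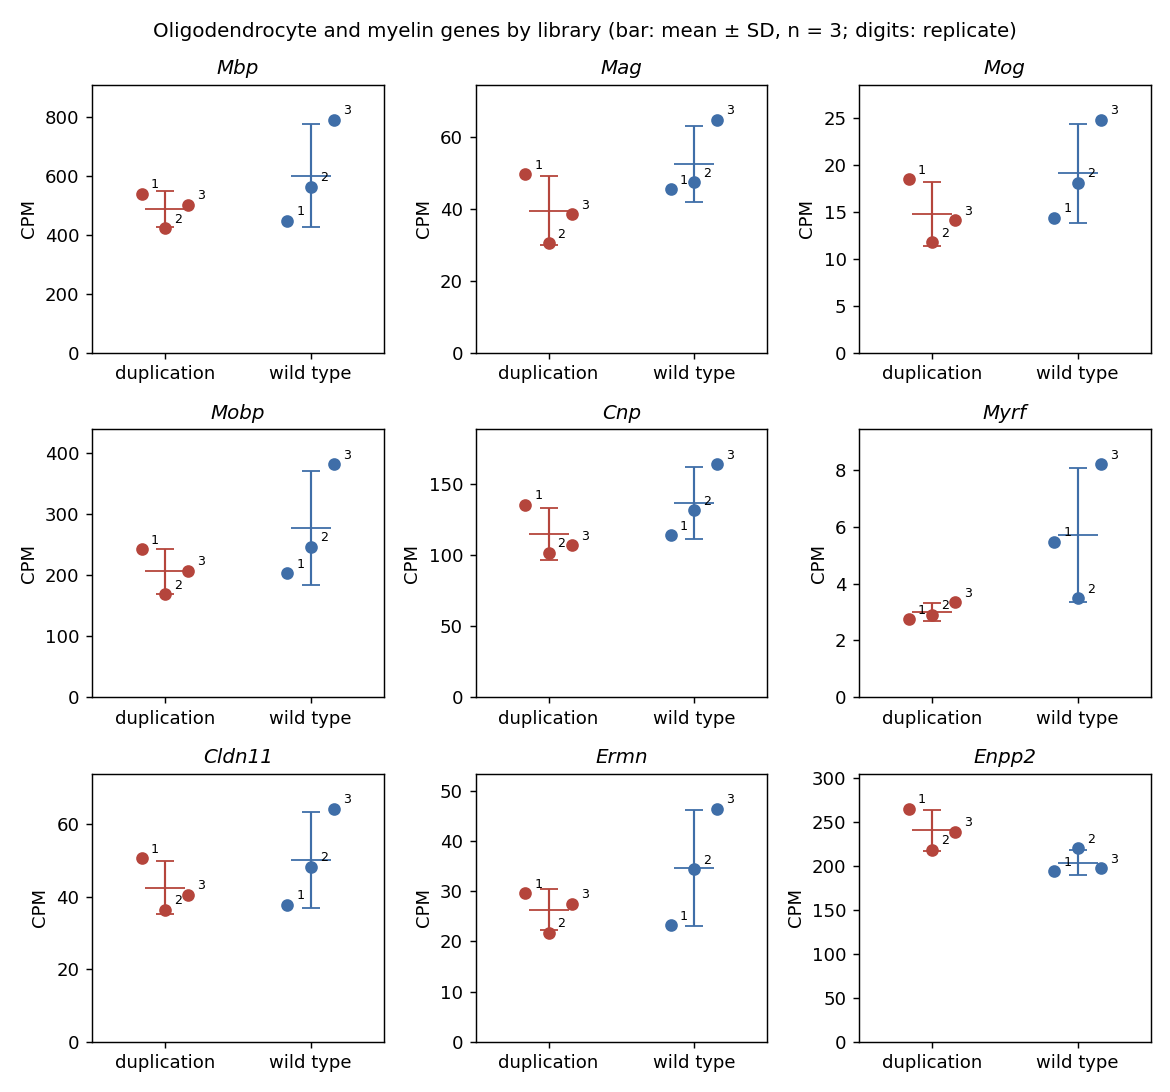
CPM of each of the 9 genes in the 3 duplication and 3 wildtype libraries, with the mean and SD of each group and the replicate number beside each point. Wildtype replicate 3 is the highest point in 8 panels, the groups overlap in all panels but that of Myrf, and Enpp2 has a higher mean in duplication libraries, 241 CPM, than in wildtype ones, 204 CPM.

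For Myrf, the transcription factor that switches on and maintains the myelin genes, the groups did not overlap. Myrf (chromosome 19, 10208272 to 10240748) had 60, 43 and 53 counts in duplication and 69, 50 and 112 counts in wildtype replicates 1 to 3. Scaled to library size this was 2.74, 2.91 and 3.34 CPM in duplication and 5.48, 3.48 and 8.21 CPM in wildtype libraries. All 3 duplication libraries were below all 3 wildtype libraries, which was so for 10.5% of all genes. The log2 fold change was -0.93 ± 0.28, with a 95% interval of -1.57 to -0.30 (edgeR quasi-likelihood test, unadjusted p = 0.00897), and it did not pass (edgeR adjusted p = 0.175, 0.00581 to 0.49 over 15 alternatives that use the names moved back). Without wildtype replicate 2 it passed as lower, at -1.20 ± 0.21 (edgeR adjusted p = 0.00581). Over all genes 730 (4.65%) were then called higher and 1676 (10.7%) lower. It also passed without both libraries numbered 2 (edgeR adjusted p = 0.0241) and with no filter on low counts (edgeR adjusted p = 0.0127), where 0.655% of all genes were called higher and 3.19% lower. Without wildtype replicate 3, the highest library, it was at -0.58 ± 0.23 (edgeR adjusted p = 0.456). The TEC and sense intronic level was also highest in wildtype replicates 3 and 1, and its part in the value of Myrf was not tested.

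Enpp2 was the gene of the 9 with a higher mean in duplication libraries. Enpp2 (chromosome 15, 54838901 to 54952892) encodes autotaxin, a secreted enzyme that makes lysophosphatidic acid and that oligodendrocytes, choroid plexus and other cells produce. It had 265, 218 and 239 CPM in duplication and 194, 220 and 197 CPM in wildtype libraries. Only wildtype replicate 2 reached the duplication values, lying just above duplication replicate 2. The log2 fold change was 0.24 ± 0.08, with a 95% interval of 0.05 to 0.43 (edgeR quasi-likelihood test, unadjusted p = 0.0177), and it did not pass (edgeR adjusted p = 0.188, 0.0238 to 0.509 over the same 15). It passed as higher without wildtype replicate 2, at 0.30 ± 0.08 (edgeR adjusted p = 0.0352). It also passed without both libraries numbered 2, at 0.37 ± 0.08 (edgeR adjusted p = 0.0238), where 1.48% of all genes were called higher and 7% lower.

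Markers of the choroid plexus, where Enpp2 is abundant, were near the detection limit. All 11 together held 213 counts in the duplication libraries and 173 in the wildtype libraries, a summed level of 3.41 to 5.07 CPM in duplication and 2.78 to 5.84 CPM in wildtype libraries. Ttr, an abundant transcript of choroid plexus epithelium, had 2, 8 and 1 counts in duplication and 2, 8 and 0 in wildtype libraries. None of the 11 was at 0 in all libraries. The meningeal markers summed to 84.8, 54.7 and 41.4 CPM in duplication and 30.5, 28.2 and 39.6 CPM in wildtype libraries. Of these 12 genes, 12 had a positive log2 fold change, 9 of them at an unadjusted p under 0.05 (7.05% of all genes were higher at it) and 0 past the adjusted threshold (edgeR), with a median of 0.90. Their most abundant gene, the collagen gene Col1a2, averaged 11.7 ± 3.7 CPM in duplication and 7.81 ± 1.5 CPM in wildtype libraries (SD, n = 3 each). The part of meningeal tissue in the Enpp2 value was not tested.

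Per length, Mbp was the most abundant of the 9 genes and Myrf the least. In CPM per kilobase of annotated exon (RPKM), Mbp averaged 57.7 ± 7.1 in duplication and 71.0 ± 20.6 in wildtype libraries (SD, n = 3 each). Enpp2, Cnp, Mobp and Cldn11 followed in duplication libraries at 41.6 ± 4.0, 31.6 ± 5.0, 30.1 ± 5.4 and 22.7 ± 3.9 RPKM. In wildtype libraries the order was Mobp, Cnp, Enpp2 and Cldn11, at 40.5 ± 13.6, 37.6 ± 6.9, 35.2 ± 2.4 and 26.8 ± 7.1 RPKM. The neighbours Mobp, Cnp and Enpp2 lay within their spread of one another in wildtype libraries. Mag, Mog and Ermn stood lower, at 9.69 ± 2.36, 8.66 ± 2.0 and 7.24 ± 1.12 RPKM in duplication and 12.9 ± 2.6, 11.2 ± 3.1 and 9.54 ± 3.20 RPKM in wildtype libraries. Myrf was at 0.35 ± 0.04 RPKM in duplication and 0.67 ± 0.28 RPKM in wildtype libraries. The exon lengths join all transcripts of a gene, so a gene with long rare isoforms, as Mbp has, reads low on this scale.

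The 7 genes other than Myrf and Enpp2 shared 1 profile across the libraries. In log2 CPM around the mean of the libraries, all 7 lay between 0.40 and 0.71 in wildtype replicate 3 and between -0.56 and -0.29 in duplication replicate 2. Duplication replicate 3 was at -0.22 to -0.08 and wildtype replicate 1 at -0.35 to 0.02. Duplication replicate 1, at 0.01 to 0.17, and wildtype replicate 2, at 0.08 to 0.22, were close to each other although the genotypes differ. Pearson correlations over the 6 libraries ranged from 0.856 to 0.992 among the 21 pairs of these 7 genes. The pairs share the same libraries, and these values describe them. Myrf correlated with the 7 at 0.51 to 0.70 and Enpp2 at -0.22 to -0.02, and Myrf with Enpp2 at -0.80.

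**Figure D2:**
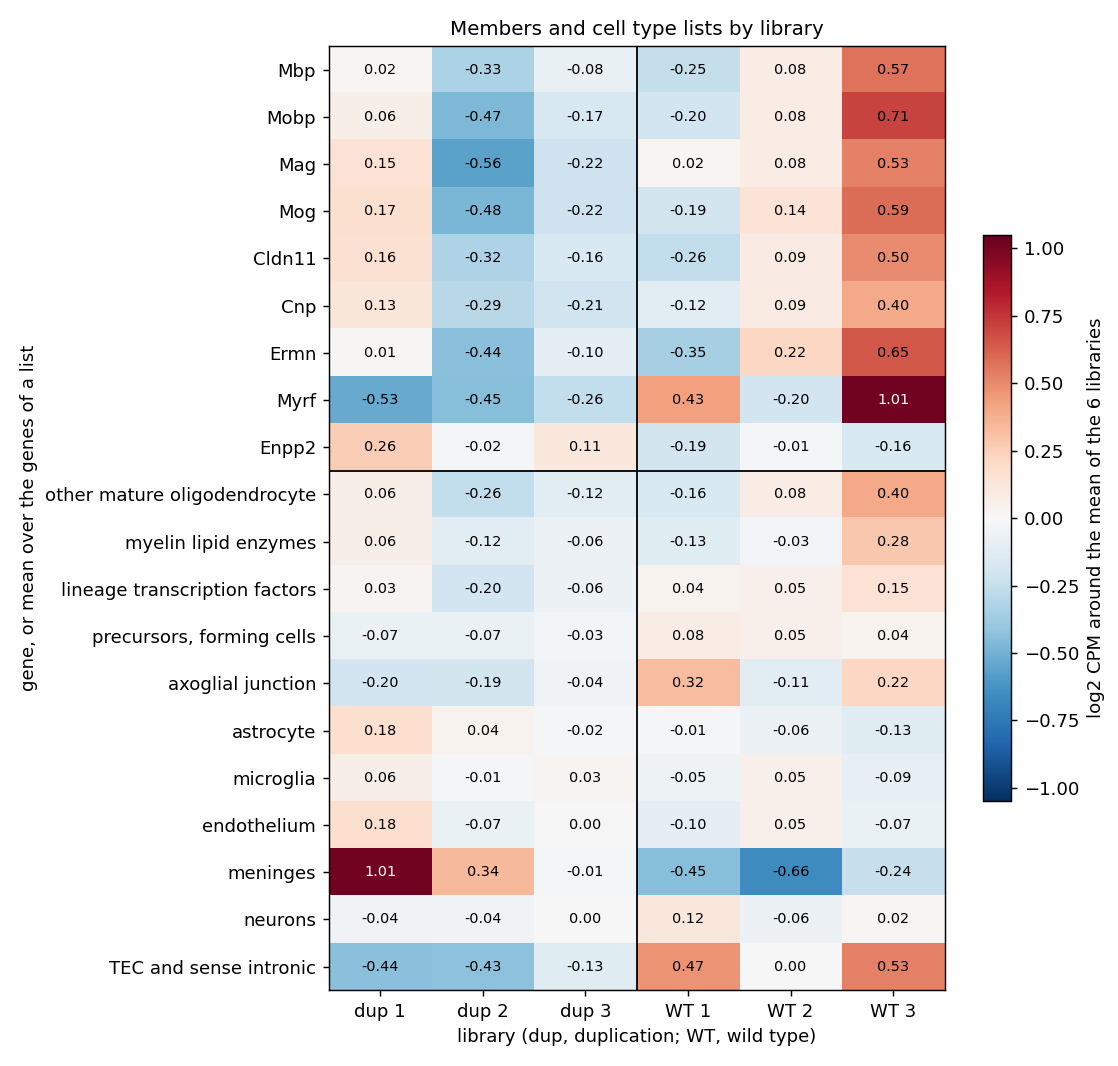
Log2 CPM around the mean of the 6 libraries for each of the 9 genes, and below the line the mean over the tested genes of each other list, with duplication libraries on the left and wildtype libraries on the right. The 7 myelin genes at the top are highest in wildtype replicate 3 (0.40 to 0.71) and lowest in duplication replicate 2 (-0.56 to -0.29), while meningeal markers are highest in duplication replicate 1 (1.01).

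These 7 genes varied more between libraries than most genes did. The highest library exceeded the lowest by 1.61-fold for Cnp to 2.27-fold for Mobp, against a median of 1.23-fold over 9545 genes with a mean of at least 10 CPM. Of those genes, 8.29% had a ratio as large as that of Cnp or larger. Among the 3 duplication libraries alone the ratios were 1.28 for Mbp to 1.63 for Mag (median of the same genes 1.10). Among the 3 wildtype libraries they were 1.43 for Cnp and Mag to 2.0 for Ermn (median 1.16).

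How far the group means lay apart depended on single libraries. Without wildtype replicate 3, the 7 genes had log2 fold changes of -0.23 for Mag to -0.02 for Cldn11, and the median of all 9 was -0.12, against -0.36 with all libraries. Without duplication replicate 2 that median was -0.22. It was -0.50 without wildtype replicate 1 and -0.49 without duplication replicate 1. Without wildtype replicate 1, 8 of the 9 were lower at an unadjusted p under 0.05, as were 7.95% of all genes, and without duplication replicate 1, 5 were, as were 6.81% of all genes. None of the 7 passed in any of these fits (edgeR), and each had a negative log2 fold change in every one.

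**Figure D3:**
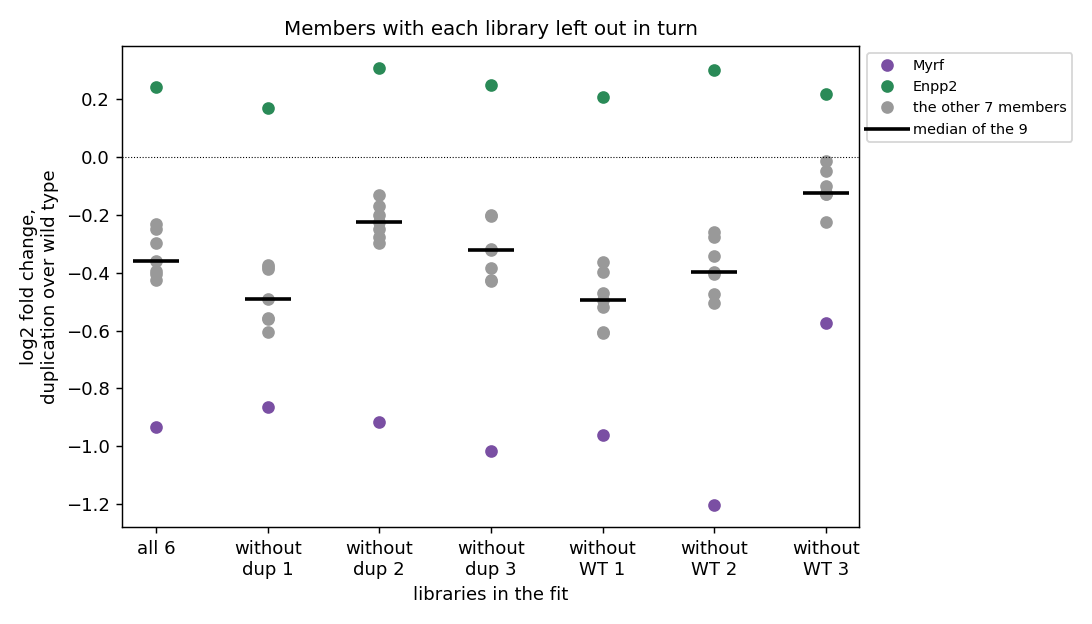
Log2 fold change, duplication over wildtype, of each of the 9 genes with all libraries and with each library left out in turn, with the median as a bar. The median moves between -0.50 and -0.12, Myrf stays lowest and Enpp2 stays above 0 in all 7 fits.

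Other genes of mature oligodendrocytes were on average also highest in wildtype replicate 3 and lowest in duplication replicate 2. Of 25 listed genes 24 were tested, 21 with a negative and 3 with a positive log2 fold change, with a median of -0.26. Of the 24, 0 passed (edgeR, DESeq2 and limma-voom) and 3 were lower at an unadjusted p under 0.05, a share close to the 12.2% of all genes. Averaged over the list, levels were 0.06, -0.26 and -0.12 in duplication and -0.16, 0.08 and 0.40 in wildtype libraries, in log2 CPM around the mean. The lowest values in the list were those of Hapln2, a link protein of the nodal matrix, at -0.68 ± 0.23, of Anln at -0.51 ± 0.23, and of Gjb1, a gap junction protein, at -0.41 ± 0.36. The highest were those of Tppp, a tubulin-binding protein, at 0.10 ± 0.06, Omg, which neurons also express, at 0.08 ± 0.07, and Apod, an apolipoprotein, at 0.08 ± 0.15. Without wildtype replicate 3 the median of this list was -0.05.

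The genes most like the 9 were found by the correlation of log2 CPM with the mean of their standardised profiles, over 6 libraries and 9537 genes of at least 10 CPM. Among the highest were Lpar1, a receptor of lysophosphatidic acid, at 0.992, Mal, a lipid raft protein of myelin, at 0.987, Adamts4 at 0.986 and Tmem177 at 0.978. With 6 libraries and so many genes, high values are common and these describe the profile. Lpar1 had 22.5, 15.3 and 19.0 CPM in duplication and 16.9, 21.8 and 29.2 CPM in wildtype libraries.

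The median of enzymes of myelin lipid synthesis was closer to 0, though not every enzyme was. Of 10 tested, 7 had a negative and 3 a positive log2 fold change, the median was -0.09, and 0 passed (edgeR, DESeq2 and limma-voom), with 1 higher at an unadjusted p under 0.05 (7.05% of all genes). The lowest were Fa2h, which hydroxylates the fatty acids of myelin lipids, at -0.41 ± 0.28, Ugt8a, which makes galactosylceramide, at -0.23 ± 0.18, and Elovl1 at -0.21 ± 0.23. Ugt8a had 39.75, 32.25 and 34.9 CPM in duplication and 32.8, 36.8 and 55.5 CPM in wildtype libraries, again highest in wildtype replicate 3. The highest were Degs1, a ceramide desaturase, at 0.16 ± 0.07, with every duplication library above every wildtype one (11.7% of all genes), Hmgcs1, of sterol synthesis, at 0.06 ± 0.06, and Sgms1, a sphingomyelin synthase, at 0.05 ± 0.08. The median of these 10 enzymes was 0.03, with its sign turned, without wildtype replicate 3.

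The lists of lineage transcription factors and of precursors and newly forming oligodendrocytes averaged -0.20 to 0.15 and -0.07 to 0.08 over the 6 libraries. These levels are in log2 CPM around the mean. Of 10 transcription factors, 8 had a negative and 2 a positive log2 fold change, with a median of -0.20 and 0 past the adjusted threshold or an unadjusted p of 0.05 (edgeR; DESeq2 and limma-voom also called 0). St18, Nkx2-2 and Zfp536 were lowest, at -0.49 ± 0.25, -0.30 ± 0.28 and -0.26 ± 0.12. Tcf7l2, Olig2 and Olig1 were highest, at 0.16 ± 0.29, 0.15 ± 0.12 and -0.06 ± 0.07. Olig1, a factor of the whole lineage, had 31.0, 28.5 and 29.8 CPM in duplication and 30.65, 31.7 and 30.8 CPM in wildtype libraries, a narrow band. Others of the list were closer to the order of the myelin genes: Sox10, Sox8, St18 and Nkx6-2 were highest in wildtype replicate 3, and Sox10 and St18 also lowest in duplication replicate 2. Sox10, which acts with MYRF on myelin genes, had 6.90, 6.63 and 7.95 CPM in duplication and 8.10, 7.72 and 9.82 CPM in wildtype libraries, a log2 fold change of -0.26 ± 0.13 (edgeR adjusted p = 0.322).

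Of 14 genes of precursors and newly forming oligodendrocytes the median was -0.12, and 0 passed (edgeR and limma-voom), with 2 lower at an unadjusted p under 0.05 (12.2% of all genes). Pdgfra, the growth factor receptor of precursors, had 69.3, 62.3 and 64.4 CPM in duplication and 64.7, 63.6 and 59.9 CPM in wildtype libraries, a log2 fold change of 0.06 ± 0.07. Itpr2 and Rras2 were the other genes at the upper end, at 0.16 ± 0.10 and 0.06 ± 0.11. Bcas1, of newly myelinating cells, was at -0.36 ± 0.18, with 44.4, 33.9 and 45.5 CPM in duplication and 40.9, 50.0 and 68.7 CPM in wildtype libraries. Pcdh15, a protocadherin, was at -0.30 ± 0.16. Tnr, the matrix protein tenascin-R, was lowest, with 156.5, 194 and 213 CPM in duplication and 324, 202.5 and 296 CPM in wildtype libraries, a log2 fold change of -0.54 ± 0.17 (edgeR adjusted p = 0.175). DESeq2 called it lower (adjusted p = 0.0392).

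Axoglial junction genes, made by axons and glia, held the lowest single value of the 5 other oligodendrocyte lists. Of 7 tested, 0 passed (edgeR) and 3 were lower at an unadjusted p under 0.05 (12.2% of all genes), with a median of -0.26. Nfasc, whose isoforms anchor the node and the paranodal loops, had 92.0, 106 and 124 CPM in duplication and 209, 116.5 and 202 CPM in wildtype libraries, a log2 fold change of -0.71 ± 0.20 (edgeR adjusted p = 0.174). Cntn2, an adhesion protein beside the paranode, had 44.8, 51.6 and 60.2 CPM in duplication and 88.9, 56.8 and 97.0 CPM in wildtype libraries, at -0.63 ± 0.18 (edgeR adjusted p = 0.174), and DESeq2 called it lower (adjusted p = 0.0231). Cntnap1, an axonal protein of the paranode, was at -0.48 ± 0.18. Cntn1, Adam22 and Lgi3 were highest, at 0.10 ± 0.05, -0.05 ± 0.05 and -0.06 ± 0.14. For Nfasc, Cntn2 and Tnr wildtype replicate 2 lay nearest the duplication libraries, as in the TEC and sense intronic level, while the myelin proteins had wildtype replicate 1 there. The part of that level in these values was not tested.

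**Figure D4:**
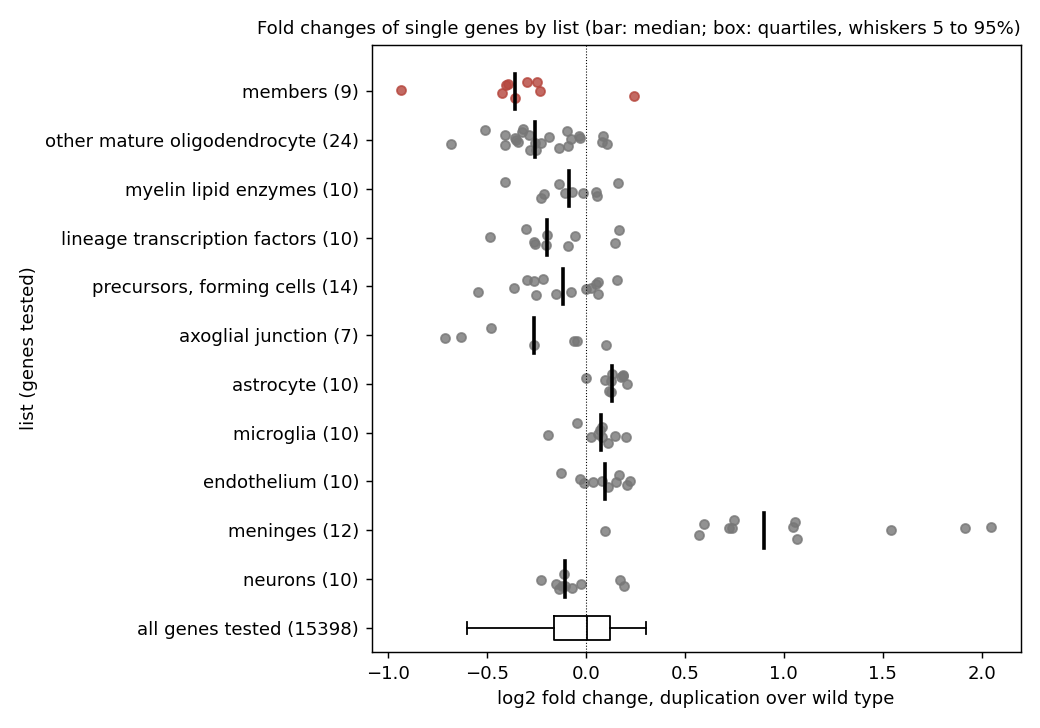
Log2 fold change, duplication over wildtype, of every tested gene of each list, with the median as a bar, and the quartiles with 5 to 95% whiskers over all 15398 genes. Medians are -0.36 for the 9 genes, -0.26 for other mature oligodendrocyte genes and -0.12 for precursors, against 0.13 for astrocytes and 0.90 for meninges.

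Markers of the other cell types of cortex had medians close to 0. Astrocyte markers, 10 of 10 at or above 0, had a median log2 fold change of 0.13, microglia markers one of 0.08, endothelial markers one of 0.10 and neuron markers one of -0.11, with 0 past the adjusted threshold in each (edgeR). At an unadjusted p under 0.05 the counts were 2, 0, 1 and 1 higher and 0, 0, 0 and 1 lower for the same lists. Each list had 10 genes tested, and 7.05% of all genes were higher and 12.2% lower at that threshold. Averaged over each list, wildtype replicate 3 was the lowest library for astrocytes (-0.13) and microglia (-0.09), and it was at 0.02 for neurons. The most abundant marker of astrocytes, the glutamate transporter gene Slc1a2, averaged 2420 ± 68.1 CPM in duplication and 2419 ± 67.9 CPM in wildtype libraries (SD, n = 3 each, as below). Slco1a4 of endothelium averaged 42.7 ± 5.4 CPM in duplication and 40.5 ± 3.4 CPM in wildtype libraries. Snap25 of neurons averaged 2867 ± 192 CPM in duplication and 2543 ± 97 CPM in wildtype libraries. It was 1 of 2 neuron markers with a positive log2 fold change, and 8 had a negative one. Every duplication library was above every wildtype one for Snap25 and below for Rbfox3, a neuronal RNA-binding protein at -0.23 ± 0.08 (edgeR adjusted p = 0.201), against 11.7% and 10.5% of all genes.

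Some of the 9 genes share exon bases with a neighbour, and whether reads were counted by strand is unstated in the sources used here. Cnp shares 154 exon bases with Dnajc7 on the opposite strand, Ermn 237 with Galnt5 and Enpp2 345 with Gm26684, both opposite. Mobp shares 79 with Gm38642 on its own strand, a gene whose name is not among those used from the count table. Values of these 4 genes are uncertain to that extent, and the exons of Mbp, Mag, Mog, Myrf and Cldn11 overlap no other annotated exon.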

How the data were processed

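The deposited values are unnormalized read counts for each gene in 6 libraries, given by the authors in 1 joint table and 1 table per library. The 2 kinds of table held the same values in all 274806 cells. Trizol RNA went into stranded TruSeq total RNA libraries after Ribo-Zero depletion, per the labels' protocols. Per the submitters' processing notes, the authors used cutadapt, TopHat2, HTSeq and build mm10. The annotation and the strand setting were not named there.

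Counts filled 45807 lines and names 45801. The name on a line was moved down by 0 to 6 lines, in 6 steps given with the gene set, which left 15986 names in place and moved 29815. Names within 25 lines of a step, and 25 names turned into dates, were not used. Lines without a used name held 0.909% to 0.954% of a library and entered neither library sizes nor tests. The offset used was also the one of highest correlation between counts and protein-coding names in 83 of 85 windows of 500 lines. Both other windows lay near the end of the table, and the steps had been found from these same counts. As deposited, the lines named Ermn and Cldn11 hold 0 counts, and Mbp 10, in the 6 libraries together. No per-sample column was left unused.

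The comparison of duplication with wildtype used edgeR 4.0.16 in R 4.3.3 (TMM factors, filterByExpr by group, quasi-likelihood F-test, no covariate) over 15398 genes. P-values were Benjamini-Hochberg adjusted over all of them, with a threshold of 0.05. Standard errors are the log2 fold change over the square root of F. Log2 CPM uses a prior count of 2. The code was tested on simulated counts. DESeq2 1.42.0, limma-voom (limma 3.58.1), other scalings and filters, a replicate block, single libraries left out and names as deposited were tried as alternatives. Positions and exon lengths come from GENCODE M21 on that build, which held 91.6% of the used names exactly once. The labels name no molecular identifiers, so depth speaks for counting error only.

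The 9 genes and the other lists were chosen with earlier results of these data known. Genes named from the oligodendrocyte lists were the 3 highest and 3 lowest log2 fold changes of each and, from other cell type lists, the most abundant gene, of which a few are not reported here. Ugt8a, Olig1 and Pdgfra were given in full, and Lpar1, Ttr, Sox8, Sox10, Nkx6-2, Rbfox3 and the interval genes added, after values were seen.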

Additional observations from a re-analysis of the deposited data

How the results depend on the processing

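Where every setting is meant, the names as deposited are left aside. The negative log2 fold changes of Mbp, Mag, Mog, Mobp, Cnp, Myrf, Cldn11 and Ermn and the positive one of Enpp2 kept their sign under all other alternatives, among them DESeq2, limma-voom, 3 other scalings and 2 other filters. With names as deposited, where other genes' counts stand against most of the names, only Mog, Mobp, Cnp, Myrf and Enpp2 were tested. Their median was 0.038, with Mobp at 0.038 and Myrf at 0.10. Of these genes, 0 were lower at an unadjusted p under 0.05 and 0 had groups that did not overlap. Leaving out 1 library at a time, with the names moved back, the median of the members ranged from -0.50 to -0.12. In these fits members called higher ranged from 0 to 1 (Enpp2) and called lower from 0 to 1 (Myrf). Members at an unadjusted p under 0.05 ranged from 0 to 1 higher and 1 to 8 lower (8 without wildtype replicate 1, beside 7.95% of all genes). Members whose groups did not overlap ranged from 1 to 4. There were 4 without wildtype replicate 1 and 4 without duplication replicate 1, beside 30.4% and 29.2% of all genes. Over all genes the calls ranged from 0 to 730 higher and 0 to 1676 lower, and over the 5 oligodendrocyte lists from 0 to 6 lower, the most in each case without wildtype replicate 2. Those 6 were Nfasc, Cntn2, Cntnap1, Cntnap2, Tnr and Pcdh15. The median of myelin lipid enzymes ranged from -0.135 to 0.027, its sign turned without wildtype replicate 3.

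Without both libraries numbered 2, 230 genes were called higher and 1090 lower, with 1 member higher (Enpp2), 1 lower (Myrf, at -1.18, adjusted p = 0.0241 in edgeR) and 5 list genes lower. In that fit 2 members had groups that did not overlap, as did 58% of all genes. With no filter on low counts edgeR called 173 higher and 843 lower, with 1 member lower (Myrf, adjusted p = 0.0127) and 4 list genes lower (Nfasc, Cntn2, Cntnap1 and Tnr). There 7 members were lower at an unadjusted p under 0.05 (9.4% of all genes). The groups of 2 members, Enpp2 and Myrf, did not overlap, nor did those of 17.3% of all genes. DESeq2 called 46 higher and 239 lower, with 3 members lower at an unadjusted p under 0.05 (10.2% of all genes) and 2 list genes lower (Cntn2 and Tnr). Upper-quartile factors separated the groups of 2 members, Enpp2 and Myrf, and of 23.2% of all genes, and moved the median of all genes to 0.03. With the replicate number as a block, edgeR called 6 higher and 1 lower and 2 members were lower at an unadjusted p under 0.05 (11.9% of all genes). The labels do not say whether the numbers pair the libraries. Deviations of same-numbered libraries from their group means correlated at 0.102, 0.063 and 0.311. Those of differently numbered libraries correlated at -0.282 to 0.157, and these values do not settle it. The causes of these shifts were not tested. Depth limits Myrf most, at 43 to 112 counts a library.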

Other observations

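Genes of Schwann cells, which make the myelin of peripheral nerve, were scarce. Of 7 listed genes 3 were tested, and Pmp2 had 0 counts in every library. Cdh19, the most abundant of the list and also made by oligodendrocyte lineage cells, was at 11.3 CPM in duplication and 10.3 CPM in wildtype libraries, a log2 fold change of 0.14 ± 0.11 that did not pass (edgeR adjusted p = 0.519). Markers of striatal neurons, a neighbouring tissue below the white matter, summed to 190, 204 and 210 CPM in duplication and 193, 211 and 227 CPM in wildtype libraries. Their most abundant gene, Pde10a, a phosphodiesterase of medium spiny neurons, was at -0.04 ± 0.12, and 0 of 9 tested passed (edgeR), also at an unadjusted p under 0.05.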
